A study of Homo sapiens with 10 samples.

Results

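MiR-371a, miR-371b, miR-372 and miR-373 form a cluster of neighbouring microRNA (miRNA) hairpins on human chromosome 19, and its 8 mature arms, taken by their exact probe names, were 8 of the 2565 miRNA probes on the arrays. The values come from HuH-7, an established hepatocellular carcinoma cell line, kept for 96 h either without drug (control, 5 arrays) or with 1 µM lenvatinib, a multikinase inhibitor that blocks VEGF and FGF receptors and is used against liver cancer (5 arrays). Both groups grew in the same low-glucose medium with fetal bovine serum and antibiotics, and RNA labelled with Cy5 was put on 1 array per sample. Nothing in the labels says that the arrays stand for independent cultures, so each p-value reflects only how these arrays vary, and that variation may be technical. The extraction label names serum whereas the other labels name cultured cells. In bulk RNA, fewer cells that carry a miRNA and less of it per cell cannot be told apart.

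MiRNAs are short RNAs that pair through bases 2 to 8, the seed, with messenger RNAs and repress them. The cluster is transcribed in human embryonic stem cells and the placenta, is silent in most adult tissues, and is switched on again in some tumours. In testicular germ cell tumours miR-372-3p and miR-373-3p act as oncogenes, in part by repressing the kinase LATS2, and miR-371a-3p in serum is a marker of those tumours. Their seed is shared with the miR-302 miRNAs of pluripotent cells and with several placental miRNAs.

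The 4 hairpins lie within 1099 bases (GRCh38.p14, chr19:53787675-53788773, from RefSeq, since the array files carry no coordinates), 25245 bases beyond MIR519A2, the nearest hairpin on one side. RefSeq places 1 other gene over the interval, the long non-coding RNA locus LOC124904767, from 53787022 to 53788225, which covers the MIR371A, MIR371B and MIR372 hairpins but not MIR373. MIR371A (chr19:53787675-53787741, plus strand) and MIR371B (chr19:53787677-53787742, minus strand) are read from opposite strands of the same DNA, and all 65 bases they share are complementary. Both hairpins are shown to make that arrangement visible, 5′ to 3′, with the 2 mature arms of each in capitals.
MIR371A: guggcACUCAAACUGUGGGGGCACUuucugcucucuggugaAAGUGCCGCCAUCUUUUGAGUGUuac
MIR371B: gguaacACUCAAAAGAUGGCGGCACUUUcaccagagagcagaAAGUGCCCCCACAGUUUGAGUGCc

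All 8 mature sequences matched RefSeq by name, and they are shown because detection differed between arms that share a seed. They run 5′ to 3′ with the seed in capitals.
hsa-miR-371a-3p: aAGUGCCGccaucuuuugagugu
hsa-miR-371b-3p: aAGUGCCCccacaguuugagugc
hsa-miR-372-3p: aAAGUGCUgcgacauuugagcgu
hsa-miR-373-3p: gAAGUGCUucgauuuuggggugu
hsa-miR-371a-5p: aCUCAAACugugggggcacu
hsa-miR-371b-5p: aCUCAAAAgauggcggcacuuu
hsa-miR-372-5p: cCUCAAAUguggagcacuauucu
hsa-miR-373-5p: aCUCAAAAugggggcgcuuucc
The seed of miR-372-3p and miR-373-3p is the same 7 bases, and so is that of miR-371b-5p and miR-373-5p, while the other 4 arms each have a seed of their own within the 8. No other miRNA on the array came within 3 base changes of a member. The closest pairs differed by 5, among them miR-371a-3p with miR-371b-3p and miR-373-3p with miR-302d-3p.

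The cluster was at or close to background in HuH-7 cells under both conditions. A probe counts as detected on an array when its brightness exceeds the mean of that array's blank spots by 2 SD of the blanks, which is how the authors' files leave a background-subtracted value filled or empty. Over the 10 arrays, 34 of the 80 member values were detected (42.5%), against 52.3% of the values of all miRNA probes. Without lenvatinib replicate 5, whose blanks stood apart, the counts were 32 of 72. No member was detected on all 10 arrays, as 868 of the 2565 probes were, and the authors' deposited table of the whole series holds no value for any of the 8. The label "oncofetal" describes where the cluster is known to be active, and these arrays do not show it clearly present in HuH-7.

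The detection limit itself lets some background through. By the same limit, 7.69% of blank spots, 27.4% of the spots listed as without a probe (23.8% without lenvatinib replicate 5) and 26.9% of the negative control spots counted as above it. The negative controls were not alike: 6.25% of the spots of negative control 1 and 2.50% of those of negative control 2 exceeded the limit, but 92.5% of those of negative control 3 (74 of 80). The median brightness of negative control 3 was 2.20 to 4.81 blank SDs above the blank mean, depending on the array. That of negative control 1 was -0.66 to 0.85 and that of negative control 2 was -1.97 to -0.22. For all miRNA probes the median was 1.72 to 3.20, below that of negative control 3 on every array. Falling below negative control 3 is therefore not particular to the members, and the share of all probes above it is not given. At a limit of 3 SD, 20 of 80 member values remained (25.0%), against 44.1% for all miRNA probes and 72.5% for negative control 3.

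**Figure D1:**
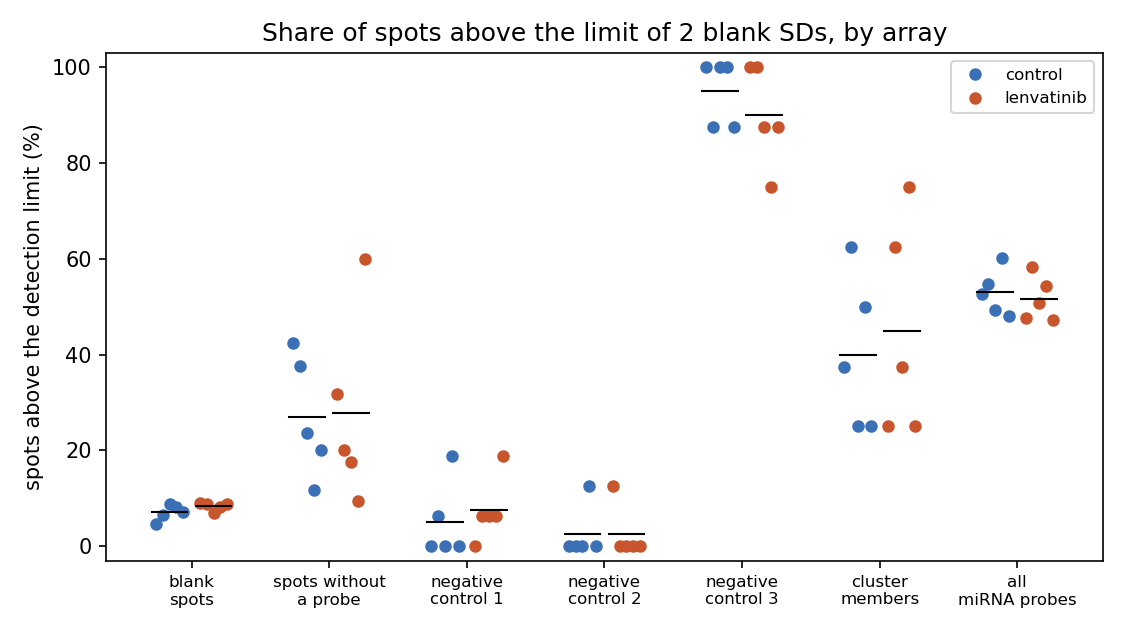
Percentage of spots above the limit of 2 blank SDs (vertical axis) for each kind of spot, 1 point per array, control in blue and lenvatinib in orange, with the mean of 5 arrays as a line. The cluster members range from 2 to 6 of the 8 probes per array, with 42.5% over all arrays, against 92.5% for negative control 3 and 52.3% for all miRNA probes.

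The arrays of the 2 conditions differed as a whole. Blank spots averaged 33.3 ± 1.51 intensity units without the drug and 68.0 ± 9.88 with it (SD, n = 5 each), a ratio of 2.04 (exact two-sided permutation test, p = 0.00794, the smallest that 5 against 5 arrays allow), and blanks were brightest on lenvatinib replicate 5, at 85.5. The SD of the blanks averaged 0.945 units on control arrays and 2.56 on lenvatinib arrays. The labels and files record no array session or scan, so whatever sets the blank level cannot be told apart from treatment for weak probes such as these, and brightness is given below both in intensity units and in blank SDs of the array. The line's hepatocyte markers miR-122-5p, miR-885-5p, miR-192-5p and miR-194-5p were detected on all 10 arrays, between 117 and 9778 units above the blanks. The germ cell and pluripotency markers miR-302a-3p to miR-302d-3p and miR-367-3p were detected in 19 of 50 values and never exceeded 11.3 units.

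Of the 3p arms, which carry the known oncogenic members, miR-372-3p gave no detectable signal. Its brightness stood 0.33, 0.84, -0.37, -0.35 and -0.03 units from the blank mean on control replicates 1 to 5, and 2.42, -1.52, 1.66, -1.64 and 4.31 units on lenvatinib replicates 1 to 5. It was detected on none of the 10 arrays, its highest value was 1.32 blank SDs, and values on both sides of the blank mean occurred in both groups. In all, 641 of the 2565 probes shared this pattern of no detection.

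MiR-373-3p, which shares the seed of miR-372-3p, was detected on 3 of 5 control and 4 of 5 lenvatinib arrays. It lay 2.19, 3.28, 1.44, 2.42 and 1.27 units above the blanks on control replicates 1 to 5 and 5.26, 9.07, 5.07, 6.95 and 8.66 units on lenvatinib replicates 1 to 5. Those groups did not overlap in intensity units. In blank SDs they did, from 1.29 to 3.06 on control arrays and from 1.88 to 4.78 on lenvatinib arrays, and miR-373-3p exceeded the median of negative control 3 on 2 of the 10 arrays.

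MiR-371a-3p, the serum marker of germ cell tumours, was detected on control replicates 2 and 4 and on lenvatinib replicates 1, 2 and 4. Its brightness above the blanks was 0.74, 2.44, 1.14, 2.12 and -1.55 units on control replicates 1 to 5. On lenvatinib replicates 1 to 5 it was 10.6, 8.25, 2.88, 8.77 and 0.48 units. The 3 lenvatinib arrays that detected it stood at 3.66 to 4.35 blank SDs, above all 5 control arrays, whose highest was 2.53, while the other 2 lenvatinib arrays fell among the controls at 1.18 and 0.15. MiR-371a-3p exceeded the median of negative control 3 on 2 of 10 arrays, 0 control and 2 lenvatinib, and that control's brightest spot on 0. At the limit of 3 SD the probe was detected on 0 control and 3 lenvatinib arrays (Fisher's exact test, two-sided, p = 0.167, adjusted p = 1 over all probes).

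MiR-371b-3p, the arm read from the opposite strand over miR-371a-5p, was detected on 4 of 5 control and 3 of 5 lenvatinib arrays. It lay 2.00, 5.57, 4.35, 0.45 and 2.26 units above the blanks on control replicates 1 to 5, and 3.17, 7.62, 5.53, 11.5 and 3.85 units on lenvatinib replicates 1 to 5. The groups overlapped on both scales, and in blank SDs the lenvatinib mean was lower, at 2.68 ± 1.67 against 2.95 ± 1.83 (SD, n = 5 each).

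Of the 5p arms, miR-371a-5p was the most often detected member, on 9 of 10 arrays, missing only control replicate 1. Its brightness above the blanks was 1.43, 4.51, 4.16, 5.36 and 2.10 units on control replicates 1 to 5 and 9.97, 11.7, 13.3, 15.7 and 10.96 units on lenvatinib replicates 1 to 5, so every lenvatinib array was higher in intensity units. In blank SDs the groups overlapped, from 1.74 to 6.40 on control arrays and from 3.35 to 6.55 on lenvatinib arrays, with means of 3.72 ± 1.87 and 5.02 ± 1.48 (SD, n = 5 each). It exceeded the median of negative control 3 on 8 of 10 arrays, 3 control and 5 lenvatinib, and exceeded the brightest of that control's 8 spots on 2 of 10. Detection on 9 or more arrays was common on this platform, at 39.8% of all miRNA probes.

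MiR-373-5p was detected on control replicates 1 and 2 and lenvatinib replicates 2 and 4. It lay 0.46 to 2.98 units above the blanks on control arrays (median 1.60) and from -0.44 to 10.9 units on lenvatinib arrays (median 3.40), where replicates 2 and 4 were high and the other 3 lay below the limit. MiR-371b-5p, which has the same seed, was detected once, on lenvatinib replicate 4, at 2.00 blank SDs and so just over the limit. On the other 9 arrays miR-371b-5p lay between -1.97 and 1.06 blank SDs. MiR-372-5p was detected once too, on control replicate 4 at 2.82 blank SDs. On the lenvatinib arrays it lay at 1.41 to 1.98 blank SDs, closely grouped just under the limit, and in intensity units it ran from 2.68 to 4.91, above all control values, which ran from 0.34 to 2.36. Neither miR-371b-5p nor miR-372-5p exceeded the median of negative control 3 on any array, a bar that the median miRNA probe also missed on each.

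**Figure D2:**
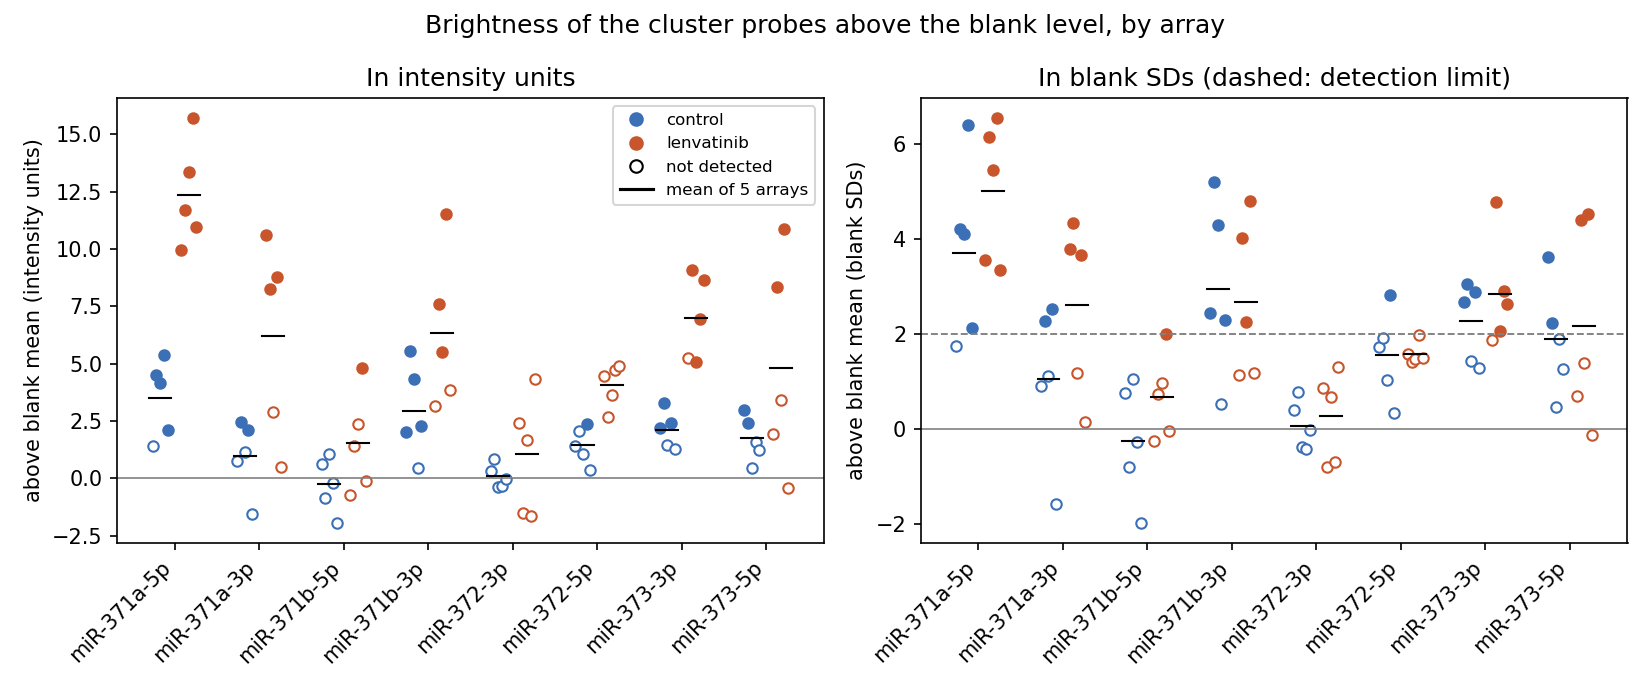
Brightness of each cluster probe above the mean of the blank spots, 1 point per array, in intensity units on the left and in SDs of the array's blanks on the right, where the dashed line marks the limit of 2. Filled points were detected, open points were not, and lines mark the mean of 5 arrays; miR-371a-5p, miR-372-5p and miR-373-3p separate on the left and no probe separates on the right.

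In intensity units, 3 of the 8 members, miR-371a-5p, miR-372-5p and miR-373-3p, were higher on every lenvatinib array than on any control array, where 35.2% of all 2565 probes were, and 0 of 8 were lower on every one, where 1.72% of all probes were. In blank SDs, 0 of 8 were higher and 0 of 8 lower in this way, where 3.04% and 3.39% of all probes were. The members' separation in intensity units was close to the share seen over all probes, on arrays whose blanks were 2.04 times as bright.

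At the limit of 2 SD, 16 of 40 member values were detected on control arrays and 18 of 40 on lenvatinib arrays. The split depended on the limit. At 3 SD it was 7 of 40 (17.5%) against 13 of 40 (32.5%), where all miRNA probes went from 45.1% to 43.0%. With 1 limit scaled to the spike controls it was 8 against 15. That limit was the highest of any array on this scale, the one of lenvatinib replicate 1. With 1 raw limit for all arrays the split was 0 against 2. That raw limit was the one of lenvatinib replicate 5, 92.1 units. No control value of a member exceeded 39.5 units, so the 0 was fixed in advance. The 2 lenvatinib detections were on replicate 5. The share over all probes is not given for these 2 limits, so their splits are not read as a result about the members. The member totals pool probes that share arrays and were not tested. Fisher's exact test, two-sided and adjusted over all 2565 probes, called 0 of 8 members and 0 probes in all (0% of all probes), with 20 probes at an unadjusted p under 0.05. That test had little room to call a probe, since even hsa-miR-4465, detected on 0 control and all 5 lenvatinib arrays, had the smallest p this design allows, 0.00794 by the exact test, and an adjusted p of 1. At 2 SD each member differed by at most 1 array of 5 between the groups, and each had p = 1 by Fisher's exact test. The number of members detected per array was 3, 5, 2, 4 and 2 on control replicates 1 to 5 and 2, 5, 3, 6 and 2 on lenvatinib replicates 1 to 5, so arrays of 1 group differed more than the groups did. Control replicates 2 and 4 and lenvatinib replicates 2 and 4, which detected 4 to 6 members, were also the arrays that detected most miRNA probes in all, 1392 to 1546 against 1209 to 1351 on the other 6. The part of the overall detection rate in the members' detection was not tested.

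**Figure D3:**
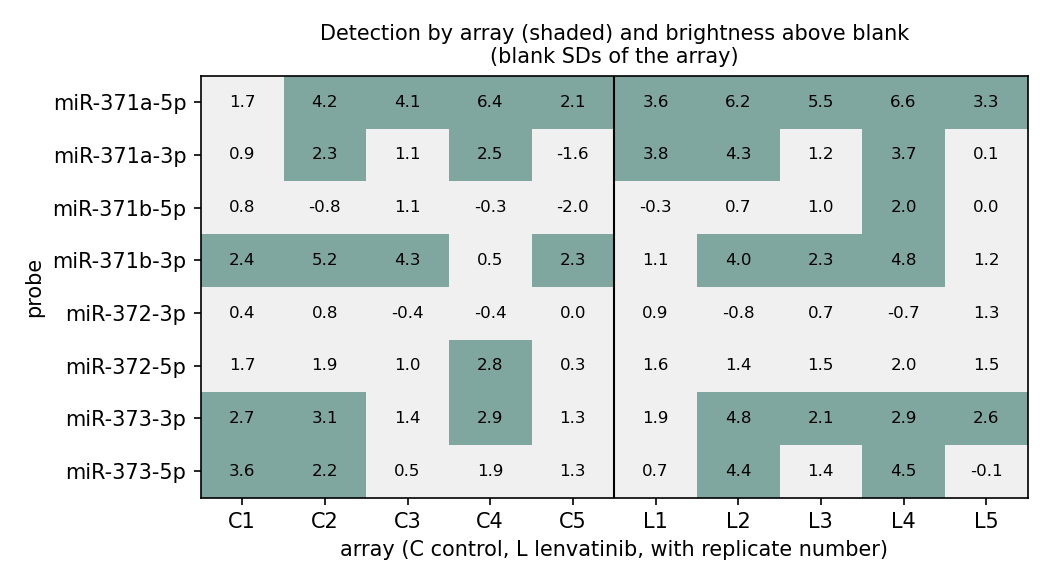
Detection of the 8 cluster probes (rows) on the 5 control arrays (C1 to C5) and 5 lenvatinib arrays (L1 to L5); shaded cells were detected and the figure in each cell is the brightness above the blank mean in blank SDs of that array. MiR-371a-5p is shaded on 9 of 10 arrays and miR-372-3p on none.

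For the test of level, each undetected probe took its array's lowest detected value, the log2 values were quantile normalized, and the 1346 probes detected on at least 5 of 10 arrays were fitted with limma. Only miR-371a-5p, miR-371a-3p, miR-371b-3p and miR-373-3p of the 8 members passed that filter. Of these 4, 0 passed an adjusted p of 0.05, where 21.5% of all tested probes did (289 probes, 12.1% higher and 9.36% lower, or 163 against 126). With arrays aligned at their 75th percentile instead, the split over all tested probes was 110 higher against 224 lower, around a median change of -0.19, and none of the 4 members passed. The median log2 change of the 4 was 0.39, against -0.03 over all tested probes.

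MiR-371a-5p had a normalized log2 level of 1.63, 2.69, 2.76, 2.90 and 1.99 on control replicates 1 to 5 and 2.78, 2.94, 3.17, 3.29 and 2.65 on lenvatinib replicates 1 to 5. The value 1.63 is the floor shared by undetected probes, and lenvatinib replicates 1 and 5 fell within the range of the control arrays. The log2 change was 0.57 ± 0.25 (SE), with a 95% interval from 0.02 to 1.13, and did not pass (limma adjusted p = 0.129). MiR-371a-3p sat on the floor on 3 control and 2 lenvatinib arrays, and its change of 0.52 ± 0.23 (SE, 95% interval 0.02 to 1.02) did not pass either (limma adjusted p = 0.132). Without lenvatinib replicate 5, the array with the brightest blanks, the miR-371a-3p change was 0.66 and passed (limma adjusted p = 0.0472). Without lenvatinib replicate 3, the other lenvatinib array on the floor, it was also 0.66 and did not pass (limma adjusted p = 0.0617). Over 26 alternatives the adjusted p ran from 4.17e-06 (limma, no scaling) to 0.353 (exact permutation test), and 2 passed.

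MiR-373-3p changed by 0.26 ± 0.19 on the log2 scale (SE, 95% interval -0.16 to 0.69, limma adjusted p = 0.389), and miR-371b-3p by -0.22 ± 0.32 (SE, 95% interval -0.92 to 0.48, limma adjusted p = 0.689). For neither was the difference larger than the spread between arrays. The intervals of miR-371b-3p and miR-373-3p hold changes of either sign. Those of miR-371a-5p and miR-371a-3p run from 0.02 to 1.13 and 1.02, but neither change passed after adjustment. Fitted with no filter, these 2 intervals also held changes of either sign, from -0.04 to 1.19 and from -0.03 to 1.07. At this signal the arrays cannot show whether the levels differed. The sizes depend on background handling: with normexp correction and an offset of 50, or with no background subtraction, every one of the 4 changes lay between -0.01 and 0.07, and with no scaling between arrays all 4 passed as higher, by 1.32 to 1.92, as did 1287 of the 1346 tested probes. The sign of miR-371b-3p turned under 4 settings. No fold is given for miR-371b-5p, miR-372-3p, miR-372-5p and miR-373-5p, which were detected on 4 arrays or fewer.

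**Figure D4:**
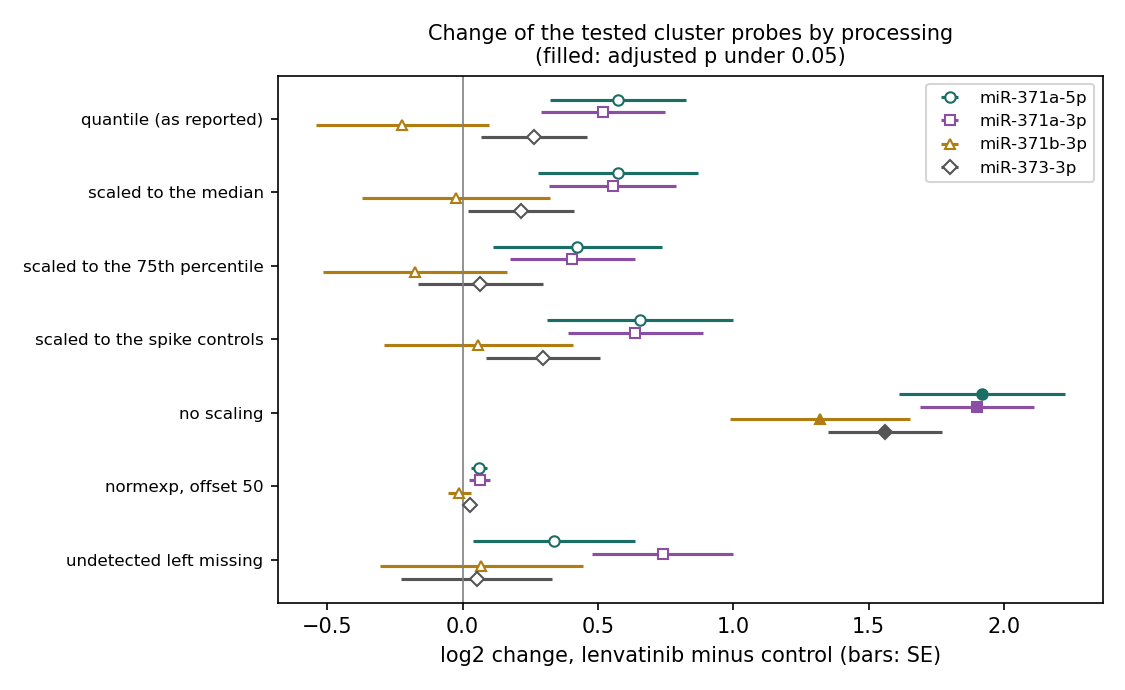
Log2 change, lenvatinib minus control, of the 4 tested cluster probes (horizontal axis, bars are SE) under 7 ways of processing (rows). Filled symbols have an adjusted p under 0.05; all 4 are open as reported with quantile normalization and filled only with no scaling, where they lie between 1.32 and 1.92.

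The miRNAs that share a seed with the cluster were also near the blank level. Besides the members, 9 probes matched by name to a RefSeq miRNA with the seed of a member, namely miR-302a-3p to miR-302d-3p, miR-302e, miR-616-5p and the placental miR-520a-3p, miR-520c-3p and miR-520d-3p. These 9 were detected in 47 of 90 values (52.2%), none on all 10 arrays, and none exceeded 11.3 units above the blanks. RefSeq lists miR-520b-3p and miR-520e-3p with such a seed too, but these names matched no probe, and the array's hsa-miR-520b (detected on 0 control and 2 lenvatinib arrays) and hsa-miR-520e (1 and 1) are not in these counts. MiR-520d-3p and miR-520a-3p, neighbours of the cluster on chromosome 19 and detected on 9 arrays each, had log2 changes of -0.66 ± 0.24 (SE, limma adjusted p = 0.0696) and -0.42 ± 0.19 (SE, adjusted p = 0.147). Of the 5 seed sharers that could be tested, 0 passed in either direction, where 21.5% of all tested probes passed. Their median change was -0.28, against -0.03 over all tested probes. The 12 probes named miR-302 or miR-367 were detected in 30 of 120 values (25.0%), and 0 of the 2 tested passed. Most belong to 1 cluster of pluripotent cells, but miR-302e and miR-302f, detected on 0 arrays, are encoded elsewhere.

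The miR-17 type miRNAs, which hold the core of the miR-372-3p seed shifted by 1 base and promote proliferation in many tumours, were mostly far above the blank level. MiR-17-5p, miR-20a-5p, miR-20b-5p, miR-93-5p, miR-106a-5p and miR-106b-5p were each detected on all 10 arrays, at least 1010.25 units above the blanks on each. The placental members of that group, miR-519d-3p and miR-526b-3p, were detected on 9 and 3 arrays. Of the 7 tested, 0 rose and 1 fell, where 12.1% of all tested probes rose and 9.36% fell. The 1 was miR-106b-5p, with a log2 change of -0.74 ± 0.14 (SE, limma adjusted p = 0.00234). MiR-93-5p had a change of -0.28 ± 0.12 and did not pass (SE, limma adjusted p = 0.115). For these 7 and the 5 tested seed sharers together, the count that passed depended on the scaling. It went from 1 of 12 lower as reported to 9 of 12 lower with the 75th percentile and 12 of 12 higher with no scaling. Over all 1346 tested probes those settings gave 126 lower, 224 lower and 1287 higher.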

How the data were processed

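HuH-7 RNA was hybridised in 1 colour (Cy5) to 3D-Gene miRNA arrays, 5 control and 5 lenvatinib, each grouped by its own label. Per the file headers, each file holds raw brightness, background-subtracted and globally normalized intensity. From the values, the background-subtracted intensity in the deposited files is raw brightness minus the mean of 320 blank spots trimmed by 5% at each end, left empty unless it exceeds 2 SD of the trimmed blanks. This rule matched every miRNA cell of all 10 arrays. The scanner is not named in the labels or file headers.

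Spots marked NG were left out (no member had one). Undetected probes took the lowest detected value of the array, log2 values were quantile normalized, and probes detected on at least 5 arrays were tested with limma 3.58.1 (R 4.3.3, two-sided, no block), with Benjamini-Hochberg adjustment over all 1346, and the fit was checked on simulated data. Detection was tested with Fisher's exact test (scipy 1.17.1). Alternatives covered scaling, background, floor, filter, NG spots, spread model, block, test and each array left out. The members and lists were chosen with earlier results of these data known. The text names all 8 members and, of the relatives, those that passed and the 4 with the smallest p. Probes of like pattern were to be named for members detected on all 10 arrays, and there were none. The number of arrays limits the precision. Brightness of different probes is not ranked.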

Additional observations from a re-analysis of the deposited data

Results flagged for a closer look

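One array measure stood apart. The blank level of lenvatinib replicate 5, at 85.5 intensity units, lay far from the other 4 lenvatinib arrays relative to the range of the group, with a gap of 0.883 of that range against a critical value of 0.71 for 5 samples. The check covered 22 groups of 5 values. They were each member's brightness in blank SDs, the blank level, the share of probes detected and the number of members detected. Of these, 1 stood out this way, and it was not a member's. Chance gives about 1 in 20 for independent groups, but these share arrays, so the count does not measure chance. Outside that check, lenvatinib replicate 5 also had the highest spike control level (34810.5 units), the most NG spots (10) and the most spots without a probe above the limit (51 of 85).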

How the results depend on the processing

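The 4 tested members kept their direction and their side of the threshold in 96 of 104 alternative values. With no filter, an intensity trend, the replicate block or the exact permutation test, the change equals the reported one by construction. Its direction could not turn there. The 8 other values follow. With no scaling, limma passed miR-371a-5p at 1.92, miR-371a-3p at 1.90 and miR-373-3p at 1.56. MiR-371a-3p also passed without lenvatinib replicate 5. The sign of miR-371b-3p turned with scaling to the spike controls (0.058), no scaling (1.32, which passed), cyclic loess (0.057) and undetected values left missing (0.069). On leaving out 1 array at a time the changes ran from 0.38 to 0.70 for miR-371a-5p, 0.35 to 0.66 for miR-371a-3p, 0.14 to 0.38 for miR-373-3p and -0.42 to -0.03 for miR-371b-3p. The members are not in the deposited table of the whole series, so that setting gives none. With detection on all 10 arrays required, no member is left. For detection, the adjusted p could hardly pass at this number of arrays, so its value of 1 in all 104 alternative values says nothing about stability. Over all tested probes, calls numbered 1289 with no scaling and 182 with undetected values left missing, and 226 to 336 on leaving out 1 array. The relatives tested were 12, of which 5 share a member's seed and 7 are of the miR-17 type. Of the 12, 1 passed as reported (miR-106b-5p, of the miR-17 type), 4 with arrays aligned at the median, 9 at the 75th percentile and 12 (all higher) with no scaling. With cyclic loess, normexp or no background subtraction 3 passed, and with an intensity trend, array weights or the exact permutation test 2. Leaving out 1 array gave 1 to 2. The number tested differed with the deposited table, where 2 of 6 passed, and with no filter, where 2 of 24 did. With the replicate number as a block, miR-371a-5p had an adjusted p of 0.0508 and no member passed, and calls over all probes numbered 257. Same-numbered arrays correlated at 0.0238 to 0.222 in their deviations from the group means. Replicates 1 to 3 of both groups and lenvatinib replicate 4 correlated best with their own number. Control replicates 4 and 5 and lenvatinib replicate 5 did not. Whether the numbers mark pairs is not known, and the fit as reported used no block. Signal over background limits all member values.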

Other observations

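The placental C19MC miRNAs lie beside the cluster on chromosome 19, and 5 of them had been listed as trophoblast markers. They were detected in 36 of 50 values, 18 in each group. MiR-517a-3p, whose probe is shared with miR-517b-3p, and miR-518b were detected on all 10 arrays, while miR-519a-3p was detected on 3, and none exceeded 12.8 units above the blanks. The erythroid markers miR-451a, miR-144-3p and miR-486-5p were detected in 20 of 30 values and the leukocyte markers miR-223-3p, miR-142-3p and miR-150-5p in 19 of 30, at most 21.3 units above the blanks. Signals of this size were thus found for markers of several other cell types, and the source of these signals was not tested.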
